A study of Mus musculus with 8 samples.

Results

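Krüppel-like factors are transcription factors that read GC-rich and CACCC sequences in promoters through a block of zinc fingers at the C-terminal end of the protein. The fingers are closely alike across the family, while the N-terminal parts differ and recruit coactivators in some members and corepressors in others, so members can compete for the same sites. In the kidney they are known for roles in injury, in podocytes and in fibrosis. The genes described here were the 10 rows of the deposited gene table, out of 22274, whose symbol was Klf2, Klf3, Klf4, Klf5, Klf6, Klf9, Klf10, Klf11, Klf13 or Klf15. The list was not cut by expression, and 9 of the 10 had enough reads to be tested.

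The libraries came from RFB, a mouse kidney cell line whose label gives the cell type fibroblast. RNA was sequenced from 4 samples treated with TGF-β and chaetocin and from 4 samples treated with TGF-β alone, so every sample had received this profibrotic cytokine. Chaetocin is a fungal metabolite used to inhibit SUV39H1, a methyltransferase of histone H3 that the title of the series names as a target in renal fibrosis. The labels state neither dose nor duration, and the series held no sample lacking TGF-β. SUV39H1 knockdown derivatives appear in the design text but in none of the sample labels. Whether the replicates were separate cultures is not stated, and each p-value reflects spread among these libraries that may be purely technical.

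Total gene counts were 14421225 to 22591935 per library with chaetocin and 20135312 to 23664084 with TGF-β alone. Chaetocin replicate 1 was the deepest of its group, with the other 3 at no more than 15084876. A count of 3, taken as the detection floor, corresponded to 0.128 to 0.2 CPM (counts scaled to a common library total, with TMM factors for library composition) with chaetocin and to 0.132 to 0.155 CPM with TGF-β alone. The label fibroblast was checked against markers. The matrix gene Fn1 averaged 2157 FPKM with chaetocin and 4374 FPKM with TGF-β alone, and the intermediate filament gene Vim averaged 211 FPKM with chaetocin and 511.5 FPKM with TGF-β alone. Lum was at 0.1175 FPKM with chaetocin and 0.005 FPKM with TGF-β alone, and Pdgfra at 0.67 FPKM with chaetocin and 0.5275 FPKM with TGF-β alone. Epithelial genes were abundant as well, with Krt8 at 1919 FPKM with chaetocin and 776.3 FPKM with TGF-β alone, and Epcam at 179.6 FPKM with chaetocin and 157.1 FPKM with TGF-β alone. The 12 fibroblast markers summed to 2336.41 to 2538.19 FPKM with chaetocin and 4850.67 to 5128.4 FPKM with TGF-β alone, most of it Fn1 and Vim. Of the 11 tested, 7 were lower, 3 were not called and 1, the proteoglycan gene Dcn, was higher (log2 fold change 4.06, edgeR adjusted p = 1.35e-11). The 12 macrophage markers, with Lyz2 and C1qa the most abundant, summed to 150.37 to 183.35 FPKM with chaetocin and 264.76 to 293.7 FPKM with TGF-β alone. Of these 9 were lower and 3 higher, namely Cd68, Itgam and Ptprc with log2 fold changes of 0.94, 0.55 and 0.29. The counts of both marker lists are to be read against 42.0% of all tested genes called higher and 38.8% called lower. The part of the marker shifts in the values of the family was not tested. The cells are called RFB cells here, by the name of the line.

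Promoter stretches of 4 members are shown because they differ in the sites that this family and its regulators bind. They come from the RefSeq promoter table (GRCm38.p6), which held 8 of the 10 members. Each runs 5′ to 3′ on the gene's strand from 250 bases before the RefSeq start and stops before the first transcribed base of either RefSeq or GENCODE M21. Klf13 lies at chr7:63938916-63939165 on the minus strand, Klf11 at chr12:24651121-24651273, Klf3 at chr5:64803271-64803387 and Klf2 at chr8:72318812-72319032, these last on the plus strand. Capitals mark CACCC on either strand (GGGTG) in Klf13, Klf11 (which has none) and Klf3 (2 of its 5 matches fall in the stretch shown), and a MEF2 site in Klf2.
Klf13: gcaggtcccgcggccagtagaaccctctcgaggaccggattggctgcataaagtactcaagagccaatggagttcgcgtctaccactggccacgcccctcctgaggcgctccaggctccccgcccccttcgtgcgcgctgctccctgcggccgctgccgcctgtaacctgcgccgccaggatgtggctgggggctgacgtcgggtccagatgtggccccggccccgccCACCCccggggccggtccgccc
Klf11: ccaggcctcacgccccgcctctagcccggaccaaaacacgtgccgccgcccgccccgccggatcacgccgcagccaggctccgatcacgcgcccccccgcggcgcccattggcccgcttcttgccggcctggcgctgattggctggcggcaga
Klf3: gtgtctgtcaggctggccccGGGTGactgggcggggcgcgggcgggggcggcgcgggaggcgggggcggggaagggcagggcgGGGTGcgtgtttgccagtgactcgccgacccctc
Klf2: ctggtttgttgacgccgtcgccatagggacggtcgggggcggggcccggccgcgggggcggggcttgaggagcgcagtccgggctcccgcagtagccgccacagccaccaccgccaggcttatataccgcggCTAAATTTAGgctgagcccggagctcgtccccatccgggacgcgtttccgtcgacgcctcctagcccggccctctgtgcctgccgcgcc

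In the full 250 bases before the RefSeq start, Klf3 held 5 CACCC matches, a number reached by 0.67% of 32536 mouse promoter windows of that length. Klf2, Klf9, Klf13 and Klf15 held 1 each and Klf4, Klf6 and Klf11 held 0, where 52.1% of all windows held at least 1. GGGCGG, the GC box read by the related Sp factors, was searched on both strands and matched 6 times in Klf3, 4 times in Klf4 and in Klf11, 3 times in Klf13, 2 times in Klf2, once in Klf6 and Klf15 and not in Klf9. It matched in 33.0% of all windows. A CACCC match overlapped a GGGCGG match once in Klf3 and once in Klf13. The MEF2 site, through which the ERK5 kinase cascade is known to switch on Klf2 in endothelium, was found in Klf2 only among these 8, starting 118 bases before the start. It was found in 2.89% of all windows. These matches are letters in a window, and no binding was measured.

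The family did not move as a block. Of the 9 tested members, 3 were higher with chaetocin (Klf10, Klf5 and Klf13), 4 were lower (Klf3, Klf11, Klf6 and Klf4) and 2 were not called (Klf2 and Klf9), by the quasi-likelihood test of edgeR with Benjamini-Hochberg adjustment over all 14608 tested genes. Over all tested genes 80.7% were called, 42.0% higher and 38.8% lower, so a called member is by itself no result about this family. The median log2 fold change of the 9 tested members was -0.02, against 0.02 over all tested genes. Only Klf10 passed a fitted fold of 2 upwards, as did 19.7% of tested genes, and 0 members passed it downwards, against 4.88%. The groups did not overlap in 7 of the 9 tested members, 3 higher and 4 lower, where they did not overlap in 74.7% of all tested genes, 39.0% higher and 35.7% lower. In bulk samples like these, a lower value can mean fewer cells that express a gene or less of its RNA per cell, and the data cannot tell these apart.

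**Figure D1:**
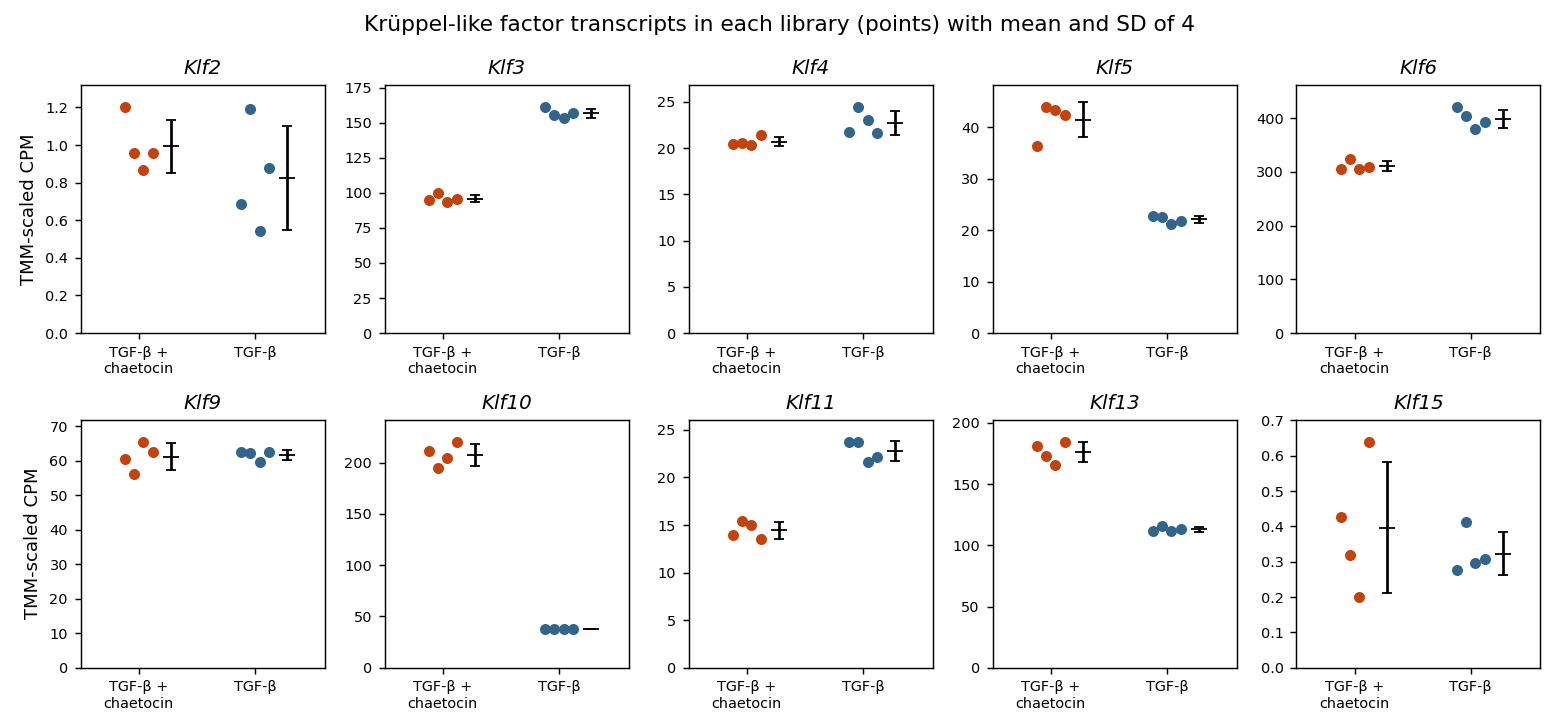
TMM-scaled CPM of the 10 Krüppel-like factor genes in each library (points) with the mean and SD of 4 libraries (bars), each panel with its own axis from 0. Klf10 sits at 195.1 to 219.9 CPM with chaetocin and at 37.4 to 37.8 CPM with TGF-β alone, while the points of Klf2, Klf9 and Klf15 overlap.

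Klf10 and Klf11 form the branch of the family first found as early genes induced by TGF-β. Both encode repressors that bind the SIN3A corepressor, and both are described as damping the SMAD7 brake on TGF-β signalling. Klf10 reached 211.6, 195.1, 204.3 and 219.9 CPM with chaetocin, against 37.8, 37.8, 37.6 and 37.4 CPM with TGF-β alone. The chaetocin libraries all lay far above the TGF-β libraries, which were almost equal to each other. The fold was 5.52 (log2 fold change 2.46 ± 0.04 SE; edgeR adjusted p = 3.04e-28), larger than in 90.2% of tested genes. Klf10 lies on chromosome 15, positions 38291463 to 38300706, minus strand (GRCm38, GENCODE M21, as for all genes here).

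Klf11 went the other way. It was at 14.0, 15.4, 15.0 and 13.5 CPM with chaetocin, against 23.7, 23.7, 21.6 and 22.1 CPM with TGF-β alone, and the groups did not overlap. Its log2 fold change was -0.66 ± 0.06 (SE; edgeR adjusted p = 4.08e-10). Klf11 lies on chromosome 12, positions 24651274 to 24662789, plus strand.

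Because a ratio of counts within a library does not depend on library scaling, the balance of the pair was compared directly. Klf10 had 14.3 counts for each count of Klf11 with chaetocin and 1.65 with TGF-β alone. The log2 ratios were 3.84 ± 0.16 and 0.73 ± 0.06 (SD, n = 4 each), a difference of 3.12 (two-sided exact permutation p = 0.0286, the smallest that 4 against 4 libraries allow). After adjustment over the 6 pairs compared in this way the p was 0.0429. Klf10 was higher and Klf11 lower with no overlap of the groups. Full separation of their ratio, and thus its p, followed from the single genes and adds no separate support.

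Klf13 and Klf9 belong to the branch of small GC-box binding factors. Klf13 is known in T cells for driving late expression of the chemokine gene Ccl5. It stood at 181, 172.8, 165.8 and 184.2 CPM with chaetocin, against 112.1, 115.9, 111.7 and 113.1 CPM with TGF-β alone, and every chaetocin library lay above every TGF-β library. The log2 fold change was 0.64 ± 0.03 (SE; edgeR adjusted p = 1.37e-16). Klf13 lies on chromosome 7, positions 63886351 to 63938915, minus strand.

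Klf9, a gene induced by glucocorticoids and thyroid hormone, was at 60.5, 56.2, 65.4 and 62.6 CPM with chaetocin, against 62.5, 62.4, 59.6 and 62.6 CPM with TGF-β alone. The groups overlapped, and the log2 fold change of -0.02 had a 95% interval of -0.10 to 0.07 (edgeR adjusted p = 0.725). Under total-count scaling, where the median of all tested genes moved to 0.14, it was 0.10 and called (edgeR adjusted p = 0.0313), so it changed no more than the median gene did. The Klf9 to Klf13 ratio was 0.348 with chaetocin and 0.546 with TGF-β alone, a log2 difference of -0.65 (exact permutation p = 0.0286, adjusted over the 6 pairs 0.0429). Klf13 was higher without overlap, and Klf9 hardly moved. Full separation of this ratio, and thus its p, followed from the single genes and adds no separate support.

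Klf5 promotes proliferation in epithelium and in activated smooth muscle, where it is known to induce Pdgfa and cyclin genes. It was at 36.4, 43.8, 43.4 and 42.3 CPM with chaetocin, against 22.7, 22.6, 21.1 and 21.7 CPM with TGF-β alone. Chaetocin replicate 1 was the lowest of its group and still clear of every TGF-β library. The log2 fold change was 0.90 ± 0.06 (SE; edgeR adjusted p = 6.89e-14), and without chaetocin replicate 1 or any other single library it stayed between 0.87 and 0.97. Klf5 lies on chromosome 14, positions 99298691 to 99315036, plus strand. Epithelial markers were split in direction. The summed level of 15 tubule epithelial markers was 3849.5 to 4016.91 FPKM with chaetocin and 1848.97 to 1933.17 FPKM with TGF-β alone. Of the 12 tested, 6 were higher and 5 lower (median log2 fold change 0.003), against 42.0% and 38.8% of all tested genes. Slc34a1, Slc12a3 and Aqp2 were under 0.1 FPKM. Most of the sum came from Krt8 and Krt18, and their part in the value of Klf5 was not tested.

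Klf4, a factor of epithelial differentiation and pluripotency that is described as opposing Klf5 at shared sites, hardly moved. It was at 20.5, 20.6, 20.3 and 21.4 CPM with chaetocin, against 21.8, 24.4, 23.1 and 21.6 CPM with TGF-β alone, groups that were separated by the gap between 21.4 and 21.6. The log2 fold change was -0.13 ± 0.06 (SE; edgeR adjusted p = 0.0399). The call was lost under most alternatives, among them total-count scaling (-0.02, edgeR adjusted p = 0.782), DESeq2 (-0.13, adjusted p = 0.122) and leaving out TGF-β replicate 2, 3 or chaetocin replicate 1, 2 or 3 (edgeR adjusted p = 0.0588 to 0.112). The balance against Klf5 did shift: Klf4 had 0.501 counts for each count of Klf5 with chaetocin and 1.03 with TGF-β alone, a log2 difference of -1.04 (exact permutation p = 0.0286, adjusted over the 6 pairs 0.0429). With Klf4 lower and Klf5 higher, each without overlap, this p too was fixed by the single genes.

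**Figure D2:**
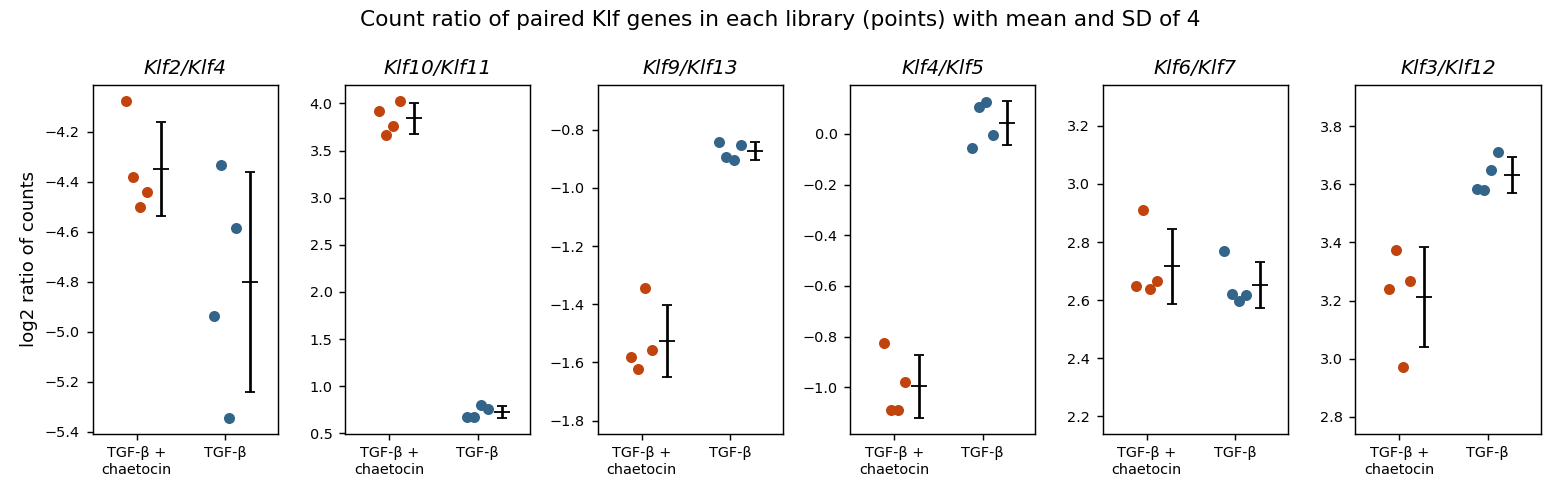
Log2 ratio of the counts of paired Klf genes in each library (points) with mean and SD of 4 libraries, each panel with its own axis. The Klf10 to Klf11 ratio averages 3.84 with chaetocin and 0.73 with TGF-β alone, the Klf4 to Klf5 ratio averages -0.996 with chaetocin and 0.04 with TGF-β alone, and the Klf6 to Klf7 and Klf2 to Klf4 ratios overlap.

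Klf6 is induced by tissue injury and in stellate cells of the liver activates Tgfb1 and collagen genes. It was the highest member by read count, at 304.6, 324.3, 305 and 309.5 CPM with chaetocin, against 419.7, 403.2, 379.3 and 393.5 CPM with TGF-β alone. All chaetocin libraries lay below all TGF-β libraries, by a modest margin (log2 fold change -0.36 ± 0.03 SE; edgeR adjusted p = 4.27e-12). The log2 ratio of FPKM in the authors' deposited table was smaller, at -0.20. Klf6 lies on chromosome 13, positions 5861482 to 5870394, plus strand. Its closest relative Klf7 was also lower, at 47.3 ± 2.81 CPM with chaetocin and 63.4 ± 1.76 CPM with TGF-β alone (SD, n = 4 each; log2 fold change -0.42, edgeR adjusted p = 7.54e-10), and the count ratio of Klf6 to Klf7 was 6.57 with chaetocin and 6.28 with TGF-β alone (exact permutation p = 0.457). Exons of Klf7 share 3196 bases with Gm26649 on the opposite strand, and the strand setting of the counting was not among the information used. With limma on FPKM the fall of Klf7 was not called (log2 fold change -0.12, adjusted p = 0.135).

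Klf3 encodes a repressor that works through the CtBP corepressors. It was at 95.1, 99.7, 93.4 and 95.4 CPM with chaetocin, against 161, 155.8, 153.3 and 157.1 CPM with TGF-β alone. The groups were far apart relative to their spread, and Klf3 had the lowest fold change by counts among tested members (log2 fold change -0.71 ± 0.03 SE; edgeR adjusted p = 3.34e-18). Klf3 lies on chromosome 5, positions 64803388 to 64832901, plus strand, and 404 exon bases overlap Gm20033 on the opposite strand. In the authors' deposited table its log2 ratio was -0.53 and that of Klf11 -0.55, so the order of these 2 members depends on the unit. The other CtBP-binding Klf genes, Klf8 and Klf12, were lower as well, as were 38.8% of all tested genes. Klf8 was at 8.10 ± 0.947 CPM with chaetocin and 11.98 ± 0.865 CPM with TGF-β alone (SD, n = 4 each; log2 fold change -0.56, edgeR adjusted p = 4.23e-06), and Klf12 at 10.3 ± 1.04 CPM with chaetocin and 12.6 ± 0.674 CPM with TGF-β alone (log2 fold change -0.29, edgeR adjusted p = 0.00259). The call for Klf12 was lost under total-count scaling (edgeR adjusted p = 0.0547). It was also lost in the limma fit of log2(FPKM + 1), where the adjusted p was 0.188. The count ratio of Klf3 to Klf12 was 9.27 with chaetocin and 12.4 with TGF-β alone, a log2 difference of -0.42 (exact permutation p = 0.0286, adjusted over the 6 pairs 0.0429). The ranges of the single genes already fixed the full separation of this ratio, so its p adds no separate support.

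Klf2 and Klf15 were close to the limit of what these libraries can measure. Klf2, the flow-responsive factor of endothelium and a keeper of T cell quiescence, had 28, 15, 13 and 15 reads with chaetocin, against 15, 23, 11 and 20 reads with TGF-β alone. The groups overlapped, and the log2 fold change of 0.30 had a 95% interval of -0.25 to 0.85 (edgeR adjusted p = 0.327), an interval that spans changes in either direction. Klf15, known for restraining fibrosis in heart and kidney and for its role in podocytes and amino acid metabolism, had 10, 5, 3 and 10 reads with chaetocin, against 6, 8, 6 and 7 reads with TGF-β alone, too few to be tested. Its summed ratio was 1.25, with a 95% exact interval of 0.71 to 2.2 that covers counting error only. The 12 endothelial markers summed to 40.49 to 47.34 FPKM with chaetocin and 28.93 to 33.9 FPKM with TGF-β alone, none under 0.1 FPKM. Of these, 6 were called higher and 4 lower, against 42.0% and 38.8% of all tested genes. The part of these markers in the values of Klf2 was not tested.

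**Figure D3:**
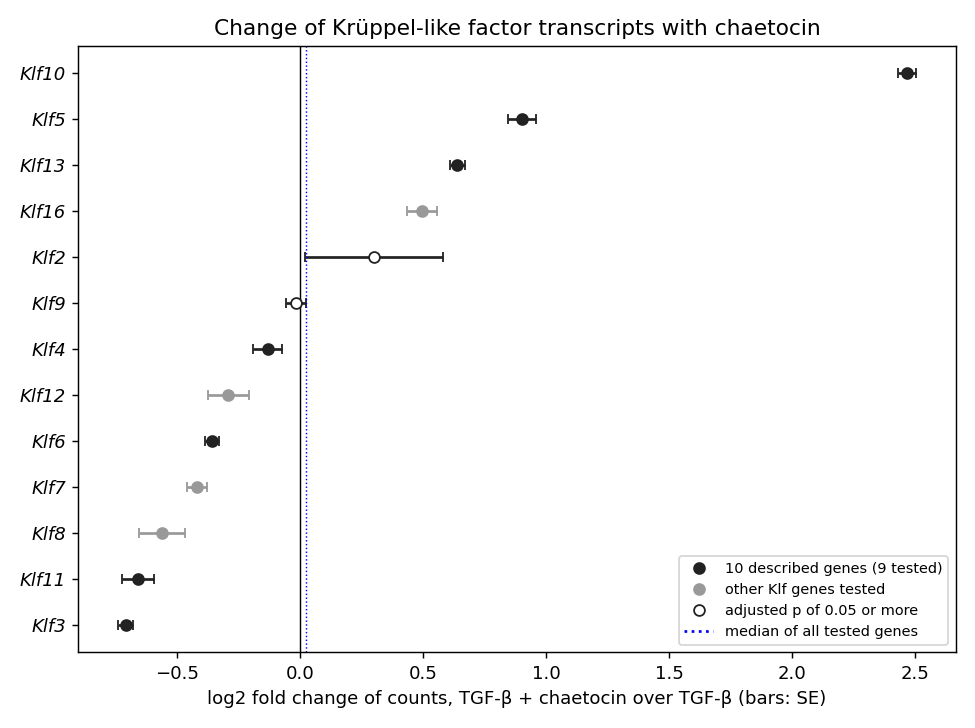
Log2 fold change of counts, TGF-β with chaetocin over TGF-β alone, with its SE, for the 9 tested members (black) and the 4 other tested Klf genes (grey). Open points were not called, and the dotted line is the median of all tested genes, 0.02. Klf10 stands at 2.46, and the remaining points lie between -0.71 and 0.90.

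Of the other Klf genes in the table, Klf16, a relative of Klf9 and Klf13, was higher at 26.8 ± 2.26 CPM with chaetocin and 19.1 ± 0.416 CPM with TGF-β alone (SD, n = 4 each; log2 fold change 0.49, edgeR adjusted p = 3.28e-08). Klf1, the erythroid factor, had 24 reads over the chaetocin libraries and 3 over the TGF-β libraries, a ratio of 9.65 whose 95% exact counting interval begins at 2.93. Klf17, a factor of germ cells and early embryos, had 18, 16, 5 and 5 reads with chaetocin and 0 in every TGF-β library. Its mean of 0.61 CPM with chaetocin was 3.94-fold the highest floor of a TGF-β library, 0.155 CPM. Chaetocin replicates 3 and 4 lay below that mean, at 0.333 and 0.319 CPM. Klf14 had 14 reads over the chaetocin libraries and 5 over the TGF-β libraries, a ratio of 3.38 whose interval begins at 1.15. These last 3 genes had too few reads for the main test. With no count filter edgeR called Klf17 (adjusted p = 7.48e-09) and Klf1 (adjusted p = 5.36e-04) and not Klf14 (adjusted p = 0.0689).

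To compare levels between members, the deposited FPKM values were used, which divide by length. With chaetocin the order was Klf6 at 80.4 ± 2.98 FPKM, Klf10 at 78.4 ± 4.67, Klf13 at 37.7 ± 2.69, Klf3 at 27.6 ± 3.61, Klf9 at 14.2 ± 0.888, Klf5 at 12.9 ± 1.11, Klf4 at 7.24 ± 0.247, Klf11 at 3.78 ± 0.242, Klf2 at 0.56 ± 0.077 and Klf15 at 0.19 ± 0.0668 FPKM (SD, n = 4 each). Klf6 and Klf10 overlapped there, as did Klf9 and Klf5, and the other neighbours did not. With TGF-β alone Klf6 led at 92.1 ± 3.27 FPKM, followed by Klf3 at 39.8 ± 1.01, Klf13 at 17.7 ± 0.725, Klf9 at 13.2 ± 0.292, Klf10 at 12.1 ± 0.294, Klf4 at 7.34 ± 0.537, Klf5 at 6.33 ± 0.203, Klf11 at 5.51 ± 0.418, Klf2 at 0.43 ± 0.147 and Klf15 at 0.138 ± 0.0299 FPKM, with no overlap between neighbours. Klf10 stood next to Klf6 with chaetocin and below Klf9 with TGF-β alone.

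The summed FPKM of the 10 genes was 256.59 to 271.81 with chaetocin and 190.28 to 198.28 with TGF-β alone, with no overlap. The size of this difference depends on the unit. In the median gene the log2 ratio of FPKM lay above the log2 fold change of counts by 0.116. This gap was 0.164 in Klf6, 0.183 in Klf3, 0.235 in Klf10 and 0.448 in Klf13. Klf10 supplied 29.8% ± 1.46 of that sum with chaetocin and 6.20% ± 0.237 with TGF-β alone (SD, n = 4 each). The share of Klf6 was 30.6% ± 0.943 with chaetocin and 47.3% ± 0.861 with TGF-β alone, and that of Klf3 was 10.5% ± 1.31 with chaetocin and 20.4% ± 0.244 with TGF-β alone. Klf13 supplied 14.3% ± 0.871 with chaetocin and 9.12% ± 0.528 with TGF-β alone.

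**Figure D4:**
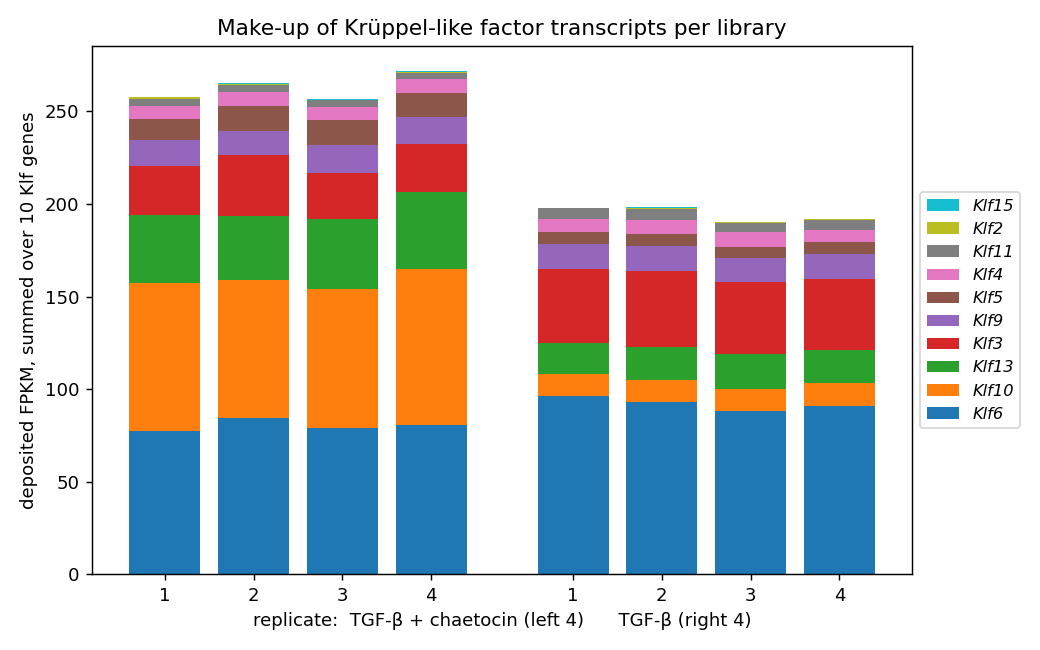
Deposited FPKM of the 10 genes stacked for each of the 4 TGF-β + chaetocin libraries (left) and the 4 TGF-β libraries (right). The stacks reach 256.59 to 271.81 FPKM with chaetocin and 190.28 to 198.28 FPKM with TGF-β alone, and the Klf10 segment supplies 29.8% of the sum with chaetocin and 6.20% with TGF-β alone.

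The deposited FPKM and counts of a gene together give the length by which the authors' calculation divided, and for some members this length differed between the groups. For Klf9 the implied length was 4486 to 4488 bases with chaetocin and 4485 to 4488 bases with TGF-β alone, and its one coding transcript in GENCODE M21 has 4486 bases. For Klf13 it was 5089, 5165, 4570 and 4637 bases with chaetocin, against 6396, 6244, 5812 and 6098 bases with TGF-β alone, where the longest annotated transcript has 6396 bases and the shortest 487. The groups of Klf13 did not overlap, and the mean length was lower by 20.7%, a larger change than in 99.4% of the 8136 genes with a mean FPKM of at least 5 in both groups. Klf10 had 2743, 2736, 2833 and 2712 bases with chaetocin, against 3043, 3044, 3044 and 2874 bases with TGF-β alone, where the longest of its 6 transcripts has 3044 bases.

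The implied lengths did not overlap between groups in 4 of the 7 members above that level (Klf5, Klf6, Klf10 and Klf13), against 15.3% of all such genes, although for Klf5 the means were 3339 bases with chaetocin and 3346 bases with TGF-β alone. The change of Klf13 therefore depends on the unit: the log2 ratio of mean FPKM was 1.09 in the authors' deposited table, and the log2 fold change from counts was 0.64. For Klf10 these were 2.70 and 2.46, where the median gene differed by 0.12 between both measures. Klf3 had an implied length of 3158 bases in chaetocin replicate 2 and 3709 to 3907 bases in the other 3, and its FPKM there was 32.91, against 24.85 to 26.55 in the others, while its CPM did not stand apart to that degree.

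**Figure D5:**
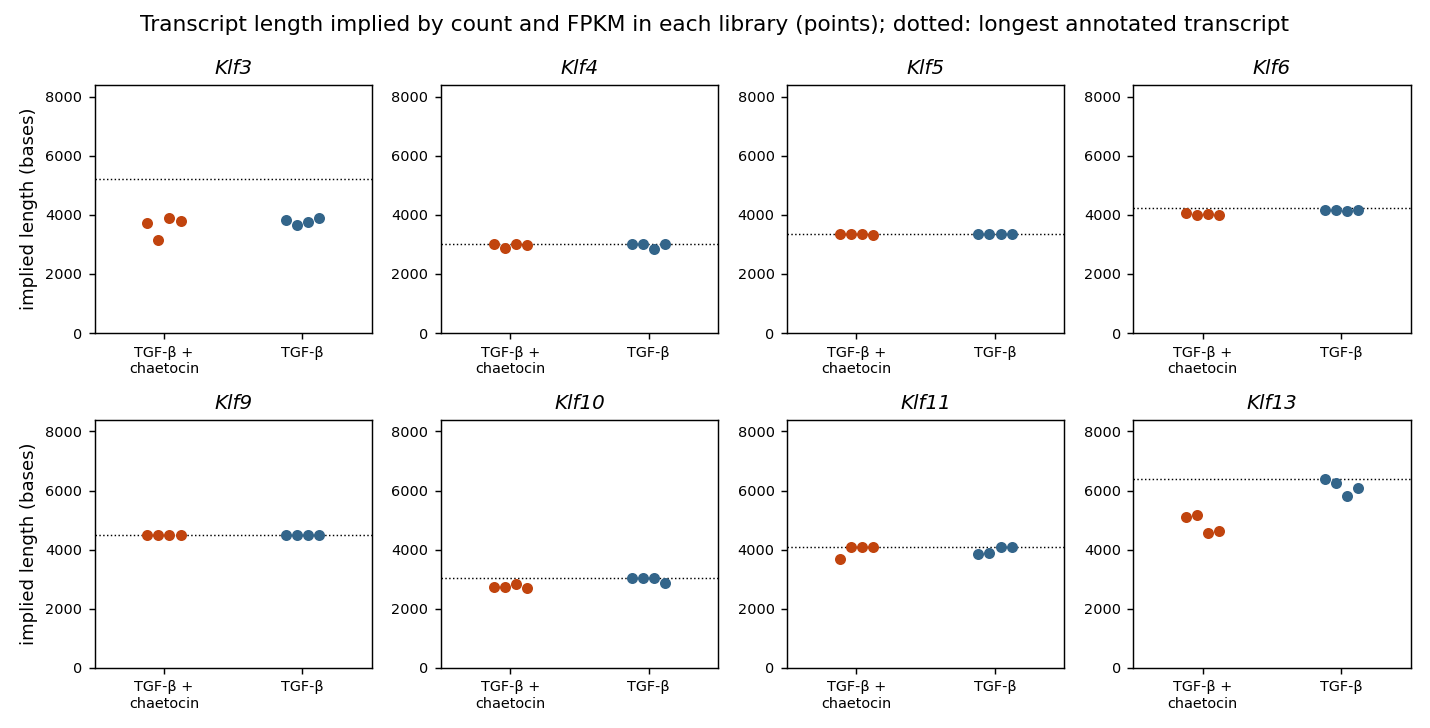
Length in bases implied by the deposited count and FPKM of 8 Klf genes in each library (points), on axes from 0, with the longest annotated transcript as a dotted line. For Klf13 the chaetocin libraries lie between 4570 and 5165 bases and the TGF-β libraries between 5812 and 6396, while for Klf9 all points lie between 4485 and 4488.

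Genes around the family were described by count, from lists of known partners, each to be read against the 42.0% higher, 38.8% lower and 80.7% called of all tested genes. The Sp factors share the zinc fingers and the GC box with this family, and 6 of 7 tested were higher with chaetocin and 1 lower (all called, median log2 fold change 0.42). Sp4 was at 36.2 ± 1.12 CPM with chaetocin and 7.7 ± 0.745 CPM with TGF-β alone (SD, n = 4 each; log2 fold change 2.23, edgeR adjusted p = 1.63e-21). Sp8, a factor of limb and brain development, had 174 reads over the chaetocin libraries and 6 over the TGF-β libraries, a ratio of 35.0 with a 95% exact counting interval of 15.7 to 96.6. Sp2 was higher by 0.42 on the log2 scale, and Sp1, the broadly used member, was lower (log2 fold change -0.27, edgeR adjusted p = 7.74e-08). On log2(FPKM + 1) the call of Sp1 was lost (log2 fold change -0.07, limma adjusted p = 0.128).

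Cofactors that Krüppel-like factors bind were lower in 9 of 14 tested cases and higher in 3 (85.7% called, median -0.19). In the fits on FPKM 5 were higher and 5 lower. Sin3a, the partner of Klf10 and Klf11, was higher at 121.6 ± 4.37 CPM with chaetocin and 77.1 ± 2.16 CPM with TGF-β alone (SD, n = 4 each; log2 fold change 0.66, edgeR adjusted p = 2.46e-16). Ctbp2, a partner of Klf3, had a log2 fold change of -0.44, and the deacetylase genes Hdac1 and Hdac2 had -0.41 and -0.51. Kat2b and Fhl3 were higher by 0.15 and 0.37. Genes that turn over these proteins or their relatives were lower in 8 of 10 cases and higher in 1 (90.0% called, median -0.38), with Fbxo32 at -0.89, Btrc at -0.74 and the ubiquitin ligase gene Itch at -0.41, while Wwp2 was higher by 0.27.

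In the ERK5 to MEF2 route to Klf2 and Klf4, 3 of 11 genes were higher and 5 lower (72.7% called, median -0.12). With total-count scaling the split was 5 higher and 4 lower. Mef2b was at 2.40 ± 0.253 CPM with chaetocin and 0.188 ± 0.0685 CPM with TGF-β alone (SD, n = 4 each; log2 fold change 3.62), and Mef2d and Map3k3 were higher by 0.54 and 0.19. Mef2a, Mapk7, the gene of ERK5 itself, and Hdac7 had log2 fold changes of -0.52, -0.50 and -0.24, and Hdac7 turned to 0.016 and was not called in the fits on FPKM. Genes of glucocorticoid action, which is known to induce Klf9 and Klf15, split into 4 higher and 7 lower among 11 tested (all called, median -0.35). The receptor gene Nr3c1 was higher by 0.50, Mt2 by 0.88 and Per1 by 0.49, and Hsd11b2, Sgk1 and Errfi1 had -2.77, -0.86 and -0.51.

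Genes reported elsewhere as targets of single members split into 11 higher and 15 lower among 29 tested (89.7% called, median -0.33). Ccnd1, a cyclin gene described as a target of Klf5, was at 749.4 ± 13.0 CPM with chaetocin and 303.7 ± 4.64 CPM with TGF-β alone (SD, n = 4 each; log2 fold change 1.30, edgeR adjusted p = 7.16e-27). Pdgfa, also described as a target of Klf5, was lower at 52.9 ± 1.08 CPM with chaetocin and 114.9 ± 3.45 CPM with TGF-β alone (log2 fold change -1.12, edgeR adjusted p = 2.64e-21), so these 2 reported targets moved in opposite directions. Lgals3, described in mice as repressed by Klf3, was higher by 1.38, and the keratin gene Krt19, a reported target of Klf4, by 1.05. Ccn2, which Klf15 is reported to repress, and Col1a1, reported for Klf6, had log2 fold changes of -1.10 and -2.01.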

How the data were processed

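RNA was sequenced from 8 libraries, grouped by their treatment label. Per the file headers, the authors deposited whole-number read counts, not normalized, and FPKM values per gene and library. The same table holds the authors' log2 ratio of mean FPKM and their p-value and FDR from a test it does not name. Coordinates are on GRCm38 (mm10), the build named in the submitters' processing notes. Aligner, counter and strand setting: not given in the sources used here. There were 0 columns of other samples.

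Counts were tested with edgeR 4.0.16 in R 4.3.3 (glmQLFit, filterByExpr, TMM), adjusted by Benjamini-Hochberg over 14608 genes, with calls at an adjusted p under 0.05. The SE is the log2 fold change divided by the square root of F, and 95% intervals are 1.96 SE. The filter left out Klf15. Pair ratios added 0.5 to each count. Counting intervals are exact (Clopper-Pearson) and cover counting error only. The alternatives were other scalings, filters and tools (DESeq2 1.42.0, limma 3.58.1), limma on log2(FPKM + 1) or log2(FPKM + 0.1) above 1 FPKM in 4 libraries or unfiltered, a replicate block and each library left out. On simulated data for this comparison (12448 genes) the test recovered, per 50 genes altered, 96% where the log2 change was -1, 94% where it was -0.5, 84% where it was 0.5 and 98% where it was 1. It called 13 of 12248 unchanged genes. In the simulation most genes were unchanged and as many were raised as lowered, while 80.7% of tested genes were called in the data. Its rates need not hold for these data.

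All Klf genes were named, plus the 3 called genes of smallest p in each direction per list of partners. Marker genes are named as the most abundant of a list or for being near 0, in part after their values were seen. Ctgf was matched as Ccn2. Members, lists and pairs were chosen with earlier results of these data known.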

Additional observations from a re-analysis of the deposited data

Results flagged for a closer look

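Each group of 4 libraries was checked for a library far from the others, by the gap to its nearest neighbour as a share of the group's range, over 32 groups. Chance marks about 1 in 20 such groups. Klf9 stood out in the TGF-β libraries, where replicate 3 was at 59.6 CPM and the others at 62.4 to 62.6 (share of the range 0.936). The log2 ratio of Klf6 to Klf7 stood out in both treatments: chaetocin replicate 2 was at 2.91 and the others at 2.64 to 2.67 (0.907), and TGF-β replicate 1 was at 2.77 and the others at 2.60 to 2.62 (0.872). These gaps are small in absolute terms, and neither Klf9 nor the difference of this pair was called in the main comparison.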

How the results depend on the processing

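Klf10, Klf5 and Klf13 stayed higher and Klf3, Klf6 and Klf11 lower, and called, under every other scaling, filter, tool, block and left-out library. In the main fit only Klf10 of these passed a fitted fold of 2. Klf5 reached a log2 fold change of 1.015 with total-count scaling and 1.012 with log2(FPKM + 0.1). The highest log2 fold change of Klf13 over the alternatives was 1.08. Klf4 had -0.12 with DESeq2 size factors (adjusted p = 0.0675), -0.018 with total-count scaling (0.782), -0.11 with at least 1 CPM in 4 libraries (0.0745), -0.13 with DESeq2 (0.122), -0.016 with log2(FPKM + 1), filtered or not, and -0.017 with log2(FPKM + 0.1) (0.813 to 0.816), and -0.16 to -0.11 with a library left out. Klf9 turned to 0.10 with total-count scaling, 0.002 with the CPM filter, 0.09 with log2(FPKM + 1), filtered or not, 0.10 with log2(FPKM + 0.1), and 0.017 without chaetocin replicate 2 (range over libraries left out -0.049 to 0.017).

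Over all tested genes 7180 were higher and 4514 lower with total-count scaling, against 6129 and 5662. With a fitted fold of at least 2 in the main fit, 2884 and 713 genes and 1 and 0 members remained. Among the other Klf genes, 3 were called higher with no count filter and with DESeq2, 4 on unfiltered FPKM, and 1 was called lower in each fit on FPKM. On FPKM 0 Sp genes were lower. Cofactors were higher in 5 cases with total-count scaling and on FPKM, and lower in 5 on FPKM. ERK5 and MEF2 genes were higher in 5 with total-count scaling and lower in 3 on FPKM. Single partner and marker genes were run under the same alternatives after the data were seen: of 36, the call was lost for Sp1 (-0.074 to -0.078 on FPKM) and for Hdac7, which turned to 0.016 in each fit on FPKM, and for no other in the fits that kept it. The cause was not tested.

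As ratios of FPKM the pairs gave 3.24 for Klf10 to Klf11, -0.99 for Klf9 to Klf13, -1.04 for Klf4 to Klf5 (each adjusted p = 0.0571), -0.37 for Klf3 to Klf12 (0.0857) and -0.061 for Klf6 to Klf7. With libraries left out the Klf6 to Klf7 difference ranged from -0.000 to 0.10. Same-numbered libraries did not deviate together (correlations -0.013 to 0.032), so no shared effect of equal numbers was seen. Whether equal numbers mark samples handled together is not stated, and these correlations cannot exclude it. With the replicate block 6105 genes were higher and 5643 lower, and Klf4 was at -0.13 and not called (adjusted p = 0.0525). For the pairs the blocked test cannot pass the threshold with 4 differences. Depth limits Klf2 and Klf15, as the intervals given with them show.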

Other observations

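The deposited annotation puts all 10 members in its class of C2H2 zinc finger factors. Of the 501 other tested genes of that class, 154 (30.7%) were higher with chaetocin and 220 (43.9%) lower, with a median log2 fold change of -0.11 (edgeR, Benjamini-Hochberg adjusted p under 0.05), against 42.0% and 38.8% of all tested genes. In 46 of these genes the rise passed a fitted fold of 2, and 20 had a larger log2 fold change than Klf10.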
